A study of Mus musculus with 8 samples.

Results

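Opposite-strand transcripts, whose symbols end in os after the name of a neighbouring gene on the other DNA strand, were followed in mouse cortex from controls and from a conditional knockout of the nonsense-mediated decay factor Upf2 (Upf2cKO). A symbol was taken when the part before os, with or without a closing number, was itself a gene in the deposited table and the transcript averaged at least 0.5 CPM (counts-per-million of the reads assigned to genes, as deposited) in either genotype. Of 55487 genes in the table, 321 had such a symbol and 296 of these had the named gene beside them in the table. The threshold kept 81 transcripts, named for 78 partner genes, because Lrp8, Pcsk2 and Ube4b each have 2. All 81 lie on the strand opposite to a protein-coding partner in the GENCODE vM21 annotation of mm10. Epb41l4aos and Dlx6os1 were left out by name. The transcripts were thus chosen by their mean CPM. Tests are given for transcripts that passed it in both genotypes, and 16 that passed it in only 1 are given as values without a test.

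The samples were 8 libraries of E18.5 (late embryonic) cortex, 4 per genotype. Upf2cKO cortex carried Upf2 fl/fl with Emx1-Cre, a Cre recombinase driven from the Emx1 locus in progenitors of the dorsal forebrain, so interneurons, microglia and vessels in the same tissue come from outside that lineage. Of the controls, 3 were Upf2 fl/fl and control 2 was Upf2 fl/+, without Cre in their labels. Nothing in the labels says whether embryos came from separate litters, and the p-values cover only the spread among these libraries, which may be technical. In whole tissue, fewer cells of a type and less RNA per cell cannot be told apart.

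Nonsense-mediated decay removes RNAs on which a ribosome stops upstream of an exon junction, and it acts on transcripts classed as non-coding when ribosomes read a short open reading frame in them. Many mammalian promoters start transcription in both directions, and the outward, divergent product is often kept low by the nuclear exosome and the Integrator complex. Other opposite-strand transcripts start inside a gene or run into its end. Some such transcripts are known to act on the partner in cis, some encode proteins of their own, and for most no role is known.

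The start regions of 7 divergent pairs are shown because both transcripts of each pair begin within one short stretch. The transcripts Med9os, Cep83os, Ccpg1os, Lhx1os and Map2k3os rose in Upf2cKO, B9d1os was not called and Stamos was not tested. Each sequence is from RefSeq (build GRCm38.p6), is written 5′ to 3′ on the strand of the opposite-strand transcript, and runs from inside the partner to inside the transcript. The capitals at the left are the first 25 transcribed bases of the partner, read on its other strand, and the capitals at the right are the first 25 bases of the opposite-strand transcript.
Med9os: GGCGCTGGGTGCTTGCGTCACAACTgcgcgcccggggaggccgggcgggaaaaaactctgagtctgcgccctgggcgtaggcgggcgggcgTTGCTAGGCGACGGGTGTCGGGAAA
Cep83os: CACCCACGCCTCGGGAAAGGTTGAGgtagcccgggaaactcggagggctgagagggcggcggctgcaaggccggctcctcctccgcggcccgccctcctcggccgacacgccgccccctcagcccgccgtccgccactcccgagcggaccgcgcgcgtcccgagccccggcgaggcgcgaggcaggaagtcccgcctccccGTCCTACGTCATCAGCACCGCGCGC
Ccpg1os: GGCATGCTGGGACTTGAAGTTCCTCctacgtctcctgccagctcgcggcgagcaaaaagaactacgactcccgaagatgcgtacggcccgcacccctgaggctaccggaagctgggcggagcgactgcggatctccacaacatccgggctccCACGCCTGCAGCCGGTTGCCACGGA
Lhx1os: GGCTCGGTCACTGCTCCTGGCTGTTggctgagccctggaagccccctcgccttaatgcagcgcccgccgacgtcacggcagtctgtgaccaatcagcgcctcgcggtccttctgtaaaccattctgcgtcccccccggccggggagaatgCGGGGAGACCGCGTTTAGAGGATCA
Map2k3os: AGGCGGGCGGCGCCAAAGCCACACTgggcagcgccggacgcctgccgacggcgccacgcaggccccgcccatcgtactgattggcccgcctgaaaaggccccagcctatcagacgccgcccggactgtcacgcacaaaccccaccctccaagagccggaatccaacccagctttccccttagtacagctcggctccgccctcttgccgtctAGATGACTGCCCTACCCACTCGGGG
B9d1os: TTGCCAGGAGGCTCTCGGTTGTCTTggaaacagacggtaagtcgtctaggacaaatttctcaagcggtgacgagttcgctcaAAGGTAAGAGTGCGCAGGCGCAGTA
Stamos: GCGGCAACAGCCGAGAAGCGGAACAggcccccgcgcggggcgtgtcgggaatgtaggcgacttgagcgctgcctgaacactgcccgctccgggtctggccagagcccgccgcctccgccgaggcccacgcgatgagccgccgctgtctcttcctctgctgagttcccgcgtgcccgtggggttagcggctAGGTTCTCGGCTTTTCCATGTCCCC
These lie at chr11:59948123-59948238 on the minus strand, chr10:94688589-94688814 on the minus strand, chr9:72985352-72985528 on the minus strand, chr11:84525510-84525684 on the plus strand, chr11:60931843-60932078 on the minus strand, chr11:61505062-61505168 on the minus strand and chr2:14073910-14074124 on the minus strand. The stretch between the RefSeq starts was shortest in B9d1os, at 57 bases with 49.1% G or C, and longest in Map2k3os, at 186 bases with 67.7%. It held 27 CG dinucleotides in Cep83os, at 79.5% G or C, and 10 in Med9os, at 77.3%. On either strand between the starts, the GC box core GGGCGG was found in Ccpg1os, Cep83os, Map2k3os and Med9os, the CCAAT box core CCAAT in Lhx1os and Map2k3os, and the ETS core CGGAAG in Ccpg1os. The TATA box core TATAAA was found in none of the 7 stretches. Matches of different motifs could overlap, since GGGCGG and CGGAAG can share the letters CGG, and CCAAT can share end letters with GGGCGG or TATAAA. Promoters of 300 bases were available for 57 of the 81 transcripts. GGGCGG was in 47.4% of these and in 35.7% of all 32851 promoters, CCAAT in 36.8% and 37.4%, CGGAAG in 19.3% and 16.9%, and TATAAA in 10.5% and 13.6%.

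Low read steps put the depth at 96.6 to 156 M assigned reads per library, so that 0.5 CPM was 48.3 to 78.0 reads. Upf2 itself was at 58.1 to 68.5 CPM in controls and 135 to 154 CPM in Upf2cKO, a gene-level sum over exons inside and outside any deleted part that checks neither the deletion nor the labels. Across 16573 genes tested with limma, 6082 (36.7%) were higher and 4359 (26.3%) lower in Upf2cKO at a Benjamini-Hochberg adjusted p under 0.05. Cell type markers also differed: 8 of 9 interneuron markers and 4 of 6 microglial markers were higher, while 7 of 9 radial glia, 4 of 8 striatal, 5 of 6 endothelial and 5 of 5 erythroid markers were lower. Cortical excitatory markers were split, with 3 higher and 5 lower of 8, and remained abundant at a summed 1970 to 2700 CPM over the 8 libraries. The choroid plexus marker Ttr reached 119 CPM in control 4 and 258 CPM in Upf2cKO 4 against 1.2 to 28.5 CPM in the other libraries. Camk2a was at 339 CPM in Upf2cKO 1 and at 41.5 to 96.7 CPM elsewhere. What these differences in makeup contributed to the changes below was not tested.

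Most opposite-strand transcripts were scarce. Their mean in control ran from 0.01 to 48.7 CPM with a median of 1.07 CPM, and 50 of the 81 stayed under 2 CPM in both genotypes. Only 6 exceeded 10 CPM in control. Per length, in TPM (transcripts-per-million), 74 of the 81 were below their partner in control and the median transcript stood at 10.4% of its partner's TPM, with 39 under 10%. In Upf2cKO that median was 11.3%. The 7 transcripts above their partner in control were Brip1os, Ccpg1os, Foxl2os, Kcnmb4os2, Lhx1os, Rab26os and Tomm6os.

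Of the 65 transcripts that averaged 0.5 CPM in both genotypes, 64 also passed the filter of 0.5 CPM in at least 4 of the 8 libraries and were tested. In Upf2cKO, 22 of the 64 (34.4%) were higher and 5 (7.81%) lower, against 36.7% and 26.3% of all genes tested. Lower calls were also few among all genes of this level, transcripts of the set included. Of 4741 genes at a mean of 0.5 to 5 CPM, 39.7% were higher and 13.3% lower. Among 481 annotated antisense genes outside the set, 33.1% were higher and 13.9% lower. The genes set beside the 64 needed only 0.5 CPM in 4 of the 8 libraries, so some may reach it in 1 genotype only. Of the 16 transcripts over the threshold in 1 genotype only, 11 passed that filter but are not among the 64. The median log2 change of the 64 was 0.18, against 0.04 over all genes. The 2 genotypes did not overlap in 25 of the 64, where 56.6% of all genes did not overlap. When the libraries were rescaled by the median of ratios, 15 transcripts were higher and 8 lower. At least a 2-fold rise was seen in 7 transcripts and a 2-fold fall in 0, and the shares over all genes at that fold were not computed. The 37 transcripts that were not called ran from Foxl2os, with a log2 change of -0.40, to Cpeb1os1, with 0.49.

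**Figure D1:**
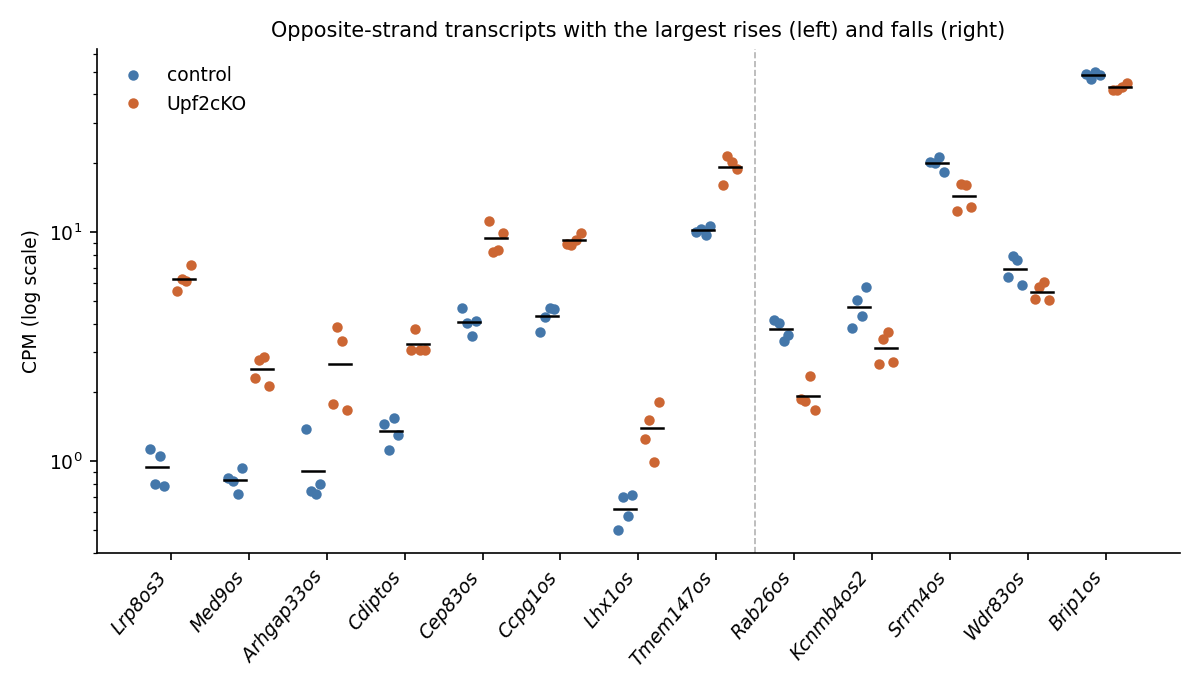
CPM of the 13 opposite-strand transcripts with the largest called rises (left of the dashed line) and falls (right) on a log axis; each point is 1 library of control or Upf2cKO cortex and each bar the mean of 4. Lrp8os3 rises from about 1 to over 5 CPM with no overlap, and Brip1os, at over 40 CPM, shows the smallest fall.

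The top pair of rises, Lrp8os3 and Med9os, came from transcripts that start back to back with their partner. Lrp8os3 (ENSMUSG00000087200, chr4:107793161-107802064, minus strand) is a non-coding RNA of 2 exons whose annotated start lies 197 bases from that of Lrp8, the reelin receptor also called ApoER2. Lrp8os3 was at 1.13, 0.80, 1.06 and 0.78 CPM in controls 1 to 4 and at 5.52, 6.25, 6.16 and 7.19 CPM in Upf2cKO 1 to 4. Every Upf2cKO library was above every control. Its mean went from 0.943 ± 0.179 to 6.28 ± 0.688 CPM (SD, n = 4), a log2 change of 2.62 ± 0.138 (SE, limma adjusted p = 6.17e-08). Lrp8 moved the other way, at 351, 363, 365 and 358 CPM in controls and 284, 301, 309 and 288 CPM in Upf2cKO. That fall of Lrp8 was 1.21-fold (limma adjusted p = 9.23e-05). Per length, Lrp8os3 rose from 1.88% to 15.2% of Lrp8 in TPM. The transcript and its partner share 0 exonic bases.

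Med9os and Cep83os, whose start regions are printed above, also more than doubled. Med9 encodes a subunit of Mediator, the complex that links transcription factors to RNA polymerase II. Med9os (chr11:59946889-59948142, minus strand) was at 0.85, 0.82, 0.72 and 0.94 CPM in controls and 2.32, 2.77, 2.85 and 2.14 CPM in Upf2cKO. The genotypes did not overlap, and the fitted rise was 2.8-fold (log2 change 1.49 ± 0.13, SE, limma adjusted p = 3.13e-06). Med9 itself was 1.14-fold higher (limma adjusted p = 0.0116), from 21.2 ± 0.878 to 24.1 ± 1.25 CPM (SD, n = 4), a call lost after median-of-ratios rescaling (limma adjusted p = 0.127). Cep83 encodes a protein of the distal appendages by which a centriole docks to the membrane before a cilium grows. Cep83os (chr10:94671025-94688576, minus strand) was at 4.66, 4.02, 3.54 and 4.09 CPM in controls and 11.2, 8.20, 8.41 and 9.94 CPM in Upf2cKO. This was a 2.27-fold rise (log2 change 1.18 ± 0.117, SE, limma adjusted p = 7.75e-06) without overlap, while Cep83 fell 1.25-fold (limma adjusted p = 0.000865), from 29.4 ± 1.91 to 23.5 ± 1.24 CPM. Cep83os thereby went from 15.3% to 44.3% of Cep83 in TPM. Cep83os overlaps Gm49167 on the other strand, so its reads may be shared with that gene.

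Ccpg1os, Lhx1os and Tmem147os completed the divergent rises among the 8 largest. Ccpg1 encodes a receptor for autophagy of the endoplasmic reticulum and had low values, at 1.07 ± 0.186 CPM in control beside 1.25 ± 0.0974 CPM in Upf2cKO (not called, limma adjusted p = 0.195). Its opposite-strand neighbour Ccpg1os (chr9:72979722-72985382, minus strand), annotated as protein coding, was at 3.67, 4.28, 4.67 and 4.64 CPM in controls and 8.90, 8.82, 9.23 and 9.92 CPM in Upf2cKO. In these values Ccpg1os exceeded its partner in both genotypes and rose 2.12-fold (limma adjusted p = 2.16e-06). Ccpg1os overlaps Gm44503 on the other strand, which is the strand of Ccpg1. Whether reads of Ccpg1 or Ccpg1os were shared with Gm44503 could not be checked. Tmem147 encodes a membrane protein of the endoplasmic reticulum translocon. Tmem147os (chr7:30729579-30745929, plus strand) was at 10.1, 10.3, 9.72 and 10.7 CPM in controls and 16.1, 21.6, 20.3 and 18.9 CPM in Upf2cKO. The groups did not overlap and the rise was 1.87-fold (limma adjusted p = 6.25e-06). Tmem147 was 1.11-fold lower with overlapping groups (limma adjusted p = 0.0492), a call that was lost under most alternatives, for example with TPM (limma adjusted p = 0.182). On its own strand Tmem147os overlaps Gm26935 and another annotated gene entry also named Tmem147os, and on the other strand Gapdhs. Its reads may be shared with these, and the values are those of ENSMUSG00000097320 only.

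Rises of similar size also occurred in other arrangements. Arhgap33os (chr7:30515122-30522193, plus strand) has 12 exons and ends 32 bases from the end of Arhgap33, which encodes a GTPase-activating protein. It was at 1.38, 0.74, 0.72 and 0.80 CPM in controls and 1.78, 3.88, 3.34 and 1.67 CPM in Upf2cKO. The Upf2cKO libraries split, with libraries 2 and 3 at about double libraries 1 and 4, yet all lay above control. The rise was 2.65-fold (log2 change 1.41 ± 0.289, SE, limma adjusted p = 0.00152). Arhgap33 was at 296 ± 10.6 CPM in control beside 279 ± 22 CPM in Upf2cKO (not called, limma adjusted p = 0.198). Cdiptos (chr7:126971722-126976098, minus strand), annotated as protein coding, overlaps the start of the phosphatidylinositol synthase gene Cdipt by 169 exonic bases. Cdiptos was at 1.45, 1.12, 1.54 and 1.31 CPM in controls and 3.08, 3.78, 3.07 and 3.05 CPM in Upf2cKO, a 2.30-fold rise without overlap (limma adjusted p = 1.07e-05). Cdipt was at 44.4 ± 1.49 and 48.4 ± 2.89 CPM (not called, limma adjusted p = 0.0533).

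Smaller called rises, with log2 changes from 0.27 to 0.73, were those of Cebpzos, Fbxl12os, Chn1os3, Map2k3os, Zfhx2os, Alkbh3os1, Zmiz1os1, Kcnd3os, Kdm6bos, Man2c1os, Mkln1os, Slc7a6os and Zfp85os. Groups overlapped in Alkbh3os1, Fbxl12os and Kcnd3os among these. Slc7a6os was the most abundant of them and encodes a protein related to the yeast factor Iwr1, which brings RNA polymerase II into the nucleus. It was at 34.0, 38.9, 38.1 and 37.4 CPM in controls and 54.7, 64.0, 61.0 and 59.9 CPM in Upf2cKO. The genotypes were fully apart, with a 1.61-fold rise (limma adjusted p = 2.49e-06). Slc7a6, an amino acid transporter gene whose end lies 2010 bases away, was 1.11-fold higher (limma adjusted p = 0.00341), a call lost after median-of-ratios rescaling (limma adjusted p = 0.212). Among transcripts annotated as protein coding, Slc7a6os, Ccpg1os, Cdiptos and Cebpzos were higher, Wdr83os was lower and Brd3os was not called. Brd3os was at 19.3 ± 1.08 CPM in control beside 19.0 ± 0.611 CPM in Upf2cKO (SD, n = 4), with a log2 change of -0.03 and a 95% interval from -0.15 to 0.10. Brd3, a bromodomain protein gene, was likewise at 253 ± 4.27 and 257 ± 13.3 CPM (not called, limma adjusted p = 0.655).

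Falls were fewer and smaller. Rab26os (chr17:24528248-24528744, plus strand) lies inside Rab26, which encodes a small GTPase of vesicle traffic, and it contains the small nucleolar RNA gene Snord60 on its own strand. Rab26os was at 4.15, 4.04, 3.34 and 3.55 CPM in controls and 1.87, 1.84, 2.36 and 1.67 CPM in Upf2cKO, a 1.91-fold fall without overlap (limma adjusted p = 7.01e-05). Reads of Snord60 could not be separated from it. Rab26 was at 1.46 ± 0.187 and 2.14 ± 1.04 CPM, with Upf2cKO 1 at 3.68 CPM and the other Upf2cKO libraries at 1.39 to 1.87 CPM (not called, limma adjusted p = 0.155).

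Kcnmb4os2 overlaps the start of Kcnmb4, the gene for a neuronal accessory subunit of BK potassium channels, by 693 exonic bases. It was at 3.81, 5.05, 4.31 and 5.75 CPM in controls and 2.65, 3.44, 3.66 and 2.72 CPM in Upf2cKO. All Upf2cKO libraries were below all controls, a 1.5-fold fall (limma adjusted p = 0.00564), while Kcnmb4 was at 3.20 ± 0.179 and 3.71 ± 0.303 CPM (not called, limma adjusted p = 0.0738). Srrm4os (chr5:116438720-116465487, plus strand) overlaps only the end of Srrm4, the neural splicing regulator of microexons, by 68 exonic bases. It was at 20.4, 20.1, 21.3 and 18.3 CPM in controls and 12.5, 16.2, 16.1 and 12.9 CPM in Upf2cKO, a 1.39-fold fall without overlap (limma adjusted p = 0.00127). Srrm4 rose over the same libraries, from 182, 184, 196 and 187 CPM to 308, 340, 366 and 330 CPM, or 1.79-fold (limma adjusted p = 2.49e-07).

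Wdr83os and Brip1os showed the smallest called falls. Wdr83os (chr8:85080740-85082339, plus strand) encodes Asterix, part of a chaperone complex for membrane proteins in the endoplasmic reticulum. It shares 52.3% of its exonic bases with Wdr83, which encodes a WD-repeat scaffold protein. Wdr83os was at 6.37, 7.87, 7.58 and 5.87 CPM in controls and 5.13, 5.79, 6.08 and 5.07 CPM in Upf2cKO. These groups overlapped, the fall was 1.24-fold (limma adjusted p = 0.0263), and it was no longer called with TPM (limma adjusted p = 0.0525) or without control 2, control 3 or Upf2cKO 4 (limma adjusted p = 0.0815, 0.0760 and 0.0674). Wdr83 was at 22.2, 22.8, 22.6 and 22.1 CPM in controls and 51.6, 50.1, 50.6 and 47.8 CPM in Upf2cKO, a 2.23-fold rise (limma adjusted p = 4.59e-09). A stranded library kit is named in the labels, but no source used here gives the strand setting of the read counting. Where exons of a pair overlap, as in Wdr83os, reads of the transcript and its partner therefore cannot be told apart. Of the 81 transcripts, 55 share some exonic bases with their partner. Some also overlap further genes on the other strand, as Srrm4os does Gm42853, Man2c1os Sin3a, Alkbh3os1 Gm27027, and Mkln1os Gm13844 and Gm14532. Zeb2os overlaps Gm27404, Gm27645 and Gm27761 on its own strand. Reads may be shared there too.

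Brip1os (chr11:86201370-86304443, plus strand) was the most abundant of all in control and starts 177 bases from Brip1, a DNA helicase gene of the Fanconi pathway. It was at 49.2, 46.8, 50.04 and 48.9 CPM in controls and 41.9, 41.9, 42.9 and 45.1 CPM in Upf2cKO. The fall was 1.13-fold without overlap (limma adjusted p = 0.00319), and 0.0534 was the limma adjusted p with TPM. Brip1os overlaps Ints2 and Med13 on the other strand, so its reads may be shared with these. Brip1 was far scarcer, at 4.09 ± 0.38 and 4.73 ± 0.559 CPM (not called, limma adjusted p = 0.13). Rab10os, also among the 5 most abundant, was at 29.2, 31.5, 33.2 and 26.8 CPM in controls and 27.8, 30.3, 33.1 and 23.0 CPM in Upf2cKO. Its groups overlapped (not called, limma adjusted p = 0.489), whereas Rab10, a small GTPase gene of membrane traffic, fell 1.19-fold from 257 ± 6.43 to 217 ± 17.4 CPM (limma adjusted p = 0.00229).

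Calls were unevenly spread over the arrangements of transcript and partner, although no test of that spread was made. Of 17 divergent transcripts without overlap, 13 were tested, with 8 higher, 1 lower and a median log2 change of 0.87. Over all other arrangements, 14 of 51 tested were higher and 4 lower, with a median of 0.06. The divergent share was 61.5% higher, with transcripts annotated as protein coding, such as Ccpg1os, counted in it. Beside it were 283 non-coding genes outside the set that start within 1000 bases of a protein-coding start and point away from it. Of these, 48.8% were higher and 8.8% lower. Those 283 needed only 0.5 CPM in 4 of the 8 libraries, not a mean of 0.5 CPM in both genotypes. Of the 17, 15 had starts within 1000 bases, and 7 of the 12 tested among these (58.3%) were higher, Ccpg1os included. Not every close divergent transcript rose: B9d1os was at 0.86 ± 0.175 CPM in control beside 0.718 ± 0.0772 CPM in Upf2cKO (not called, limma adjusted p = 0.242), with its ciliary partner B9d1 1.25-fold lower (limma adjusted p = 0.00097).

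Transcripts lying inside their partner gave 1 higher (Kdm6bos) and 1 lower (Rab26os) of 14 tested, with a median log2 change of -0.12. Those overlapping at the starts gave 5 higher and 2 lower of 23, and those overlapping at the ends 4 higher and 1 lower of 9. Of 4 that converge on their partner without overlap, 3 were higher, and Zfp85os, which spans its partner whole, was higher. Among tested transcripts not annotated as protein coding, 6 of 13 with an exon junction more than 50 bases after their longest open reading frame were higher and 0 lower. Of the 44 without such a junction, 11 were higher and 4 lower. These shares of 46.2% and 25% higher stood beside 36.7% higher and 26.3% lower over all genes tested. Among genes at a mean of 0.5 to 5 CPM, 39.7% were higher and 13.3% lower. The difference between the 2 kinds of transcript was not tested. The open reading frames were read from the longest annotated transcript, and no translation was measured.

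**Figure D2:**
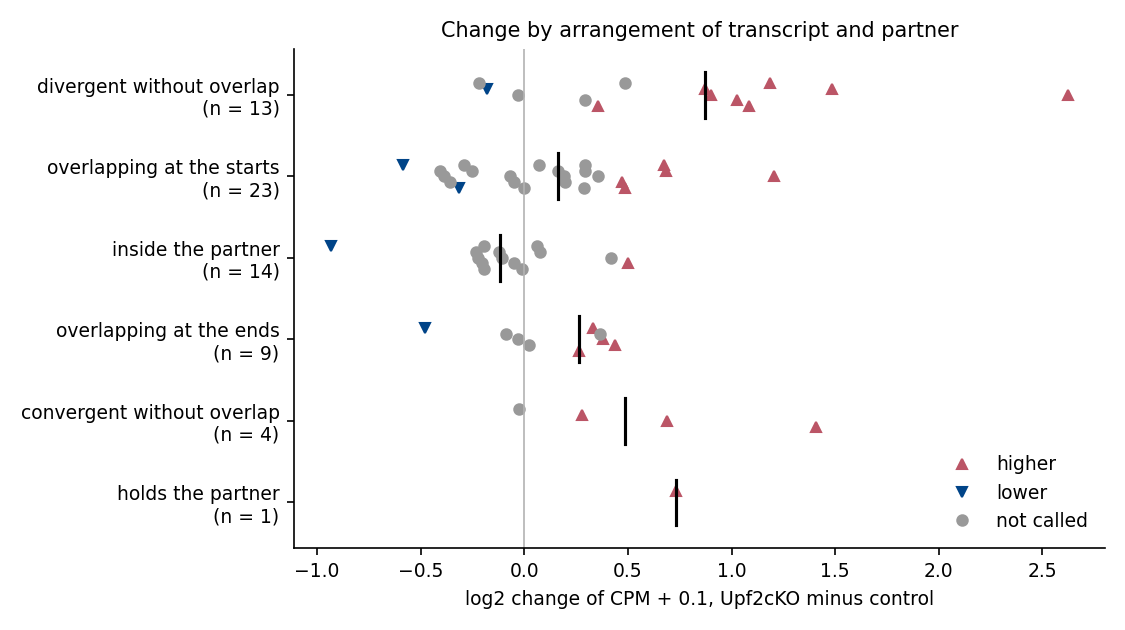
Log2 change of CPM + 0.1 (Upf2cKO minus control) for the 64 tested opposite-strand transcripts by their arrangement with the partner; each symbol is 1 transcript, triangles are called higher or lower and black bars are medians. The divergent row has 8 of 13 higher and a median of 0.87, and the row inside the partner is centred at -0.12.

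Partners moved in both directions about equally. Of 75 partners tested, 24 (32%) were higher and 23 (30.7%) lower, against 36.2% and 28.5% of protein-coding genes. These counts depended on scaling, with 27 higher and 16 lower in TPM. Rescaling by the median of ratios gave 16 higher and 32 lower. Among the 64 tested pairs, both genes were higher in 11 and both lower in 0. The transcript was higher and the partner lower in 7, and the reverse held in 2. The partner alone was higher in 8 and lower in 11, the transcript alone was higher in 4 and lower in 3, and neither was called in 18. Over the 64 pairs, which share libraries and in part reads, the log2 changes had a Pearson r of -0.07 and a Spearman rho of -0.0024.

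The log2 ratio of transcript to partner within each library was tested next. It was higher in Upf2cKO in 19 of the 64 pairs and lower in 12, or 48.4% called. The share was 63.1% over 3485 pairs, which are annotated opposite-strand neighbours together with the pairs studied here, the 64 among them. Genes of those neighbour pairs needed only 0.5 CPM in 4 of the 8 libraries. The ratio did not overlap between genotypes in 29 of the 64 pairs, and the share over the neighbour pairs was not computed. The 7 pairs with a higher transcript and a lower partner, whose ratio is higher by that choice, were Lrp8os3, Cep83os, Tmem147os, Zfp85os, Zmiz1os1, Kcnd3os and Map2k3os. For Lrp8os3 the log2 ratio to Lrp8 went from -8.44 to -5.54 (limma adjusted p = 3.41e-07), and an exact permutation test over the 8 libraries gave p = 0.0286 (two-sided), the smallest it can give with 4 against 4. Zfp85os was at 2.69, 2.68, 2.56 and 2.54 CPM in controls and 4.13, 4.44, 4.40 and 4.70 CPM in Upf2cKO, a 1.66-fold rise without overlap (limma adjusted p = 1.83e-05). The zinc finger gene Zfp85 that it spans fell 1.27-fold (limma adjusted p = 0.0149), with overlapping groups.

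In 3 of the 4 pairs with the largest fall of the ratio the partner rose, and the other was Rab26os. For Wdr83os the log2 ratio went from -1.69 to -3.16 (limma adjusted p = 1.32e-06) and for Srrm4os from -3.22 to -4.54 (limma adjusted p = 1.03e-06). Alkbh3, which encodes a demethylase that repairs alkylated DNA and RNA, was the partner with the largest rise, from 11.3 ± 0.767 to 40.5 ± 2.85 CPM, or 3.56-fold (limma adjusted p = 5.08e-09). Alkbh3os1 rose only 1.35-fold (limma adjusted p = 0.0417), so it went from 18.6% to 7.32% of Alkbh3 in TPM. Zfp335, a transcriptional regulator gene of neural progenitors, rose 2.35-fold (limma adjusted p = 8.48e-08), while Zfp335os was at 1.30 ± 0.0753 and 1.26 ± 0.202 CPM (not called, limma adjusted p = 0.76).

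In other pairs both genes rose by like amounts. Mkln1os overlaps the start of Mkln1, the muskelin gene, by 39 exonic bases, and it rose 1.61-fold (limma adjusted p = 0.000199) beside a 1.54-fold rise of Mkln1 (limma adjusted p = 1.78e-06). The difference in their log2 ratio was 0.06, with a 95% interval from -0.13 to 0.25. Man2c1os rose 1.59-fold (limma adjusted p = 0.000985) and Man2c1, a cytosolic mannosidase gene, 1.86-fold (limma adjusted p = 7.36e-08). These 2 share 461 exonic bases.

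**Figure D3:**
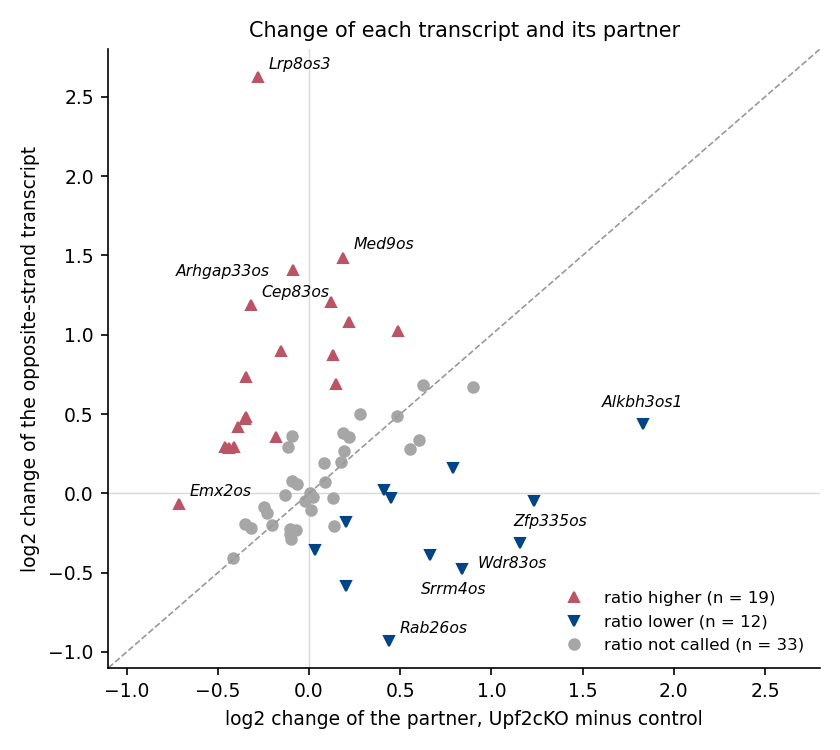
Log2 change of CPM + 0.1 of each opposite-strand transcript (vertical) against that of its partner (horizontal), Upf2cKO minus control, for 64 pairs; the dashed line marks equal change and symbols mark whether the ratio of the 2 was called. The 19 pairs with a higher ratio lie above the line, led by Lrp8os3, and the 12 with a lower ratio lie below it, with Alkbh3os1 farthest right.

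Several partners are transcription factors that pattern the forebrain. Emx2, a homeobox gene of cortical progenitors, was at 18.8, 21.3, 20.7 and 20.8 CPM in controls and 11.8, 12.4, 11.9 and 13.6 CPM in Upf2cKO. This fall was 1.64-fold without overlap (limma adjusted p = 3.67e-06), and summed radial glia markers, Emx2 among them, went from 1320 to 1370 CPM in controls down to 881 to 1040 CPM. Emx2os, whose start overlaps that of Emx2 by 264 exonic bases, was at 3.25, 3.85, 3.94 and 3.42 CPM in controls and 4.2, 3.49, 2.63 and 3.58 CPM in Upf2cKO. Its groups overlapped, with a log2 change of -0.07 and a 95% interval from -0.37 to 0.23. The ratio of Emx2os to Emx2 was therefore higher in Upf2cKO by 0.64 on the log2 scale (limma adjusted p = 0.00146).

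Zeb2os lies inside Zeb2, a zinc finger gene that sets neuronal fate and migration, and was at 1.56, 1.41, 1.67 and 1.13 CPM in controls and 1.1, 1.45, 1.45 and 1.25 CPM in Upf2cKO. The groups overlapped (not called, limma adjusted p = 0.487), while Zeb2 fell 1.17-fold from 567 ± 27.1 to 483 ± 18.3 CPM (limma adjusted p = 0.00134). Lhx1 encodes a LIM-homeodomain factor. Lhx1os (chr11:84525660-84535831, plus strand) was at 0.50, 0.70, 0.58 and 0.71 CPM in controls and 1.25, 1.51, 0.99 and 1.82 CPM in Upf2cKO, a 2.04-fold rise without overlap (limma adjusted p = 0.000688). Lhx1 was at 2.08, 1.89, 1.71 and 1.88 CPM and then 2.62, 3.33, 1.78 and 3.34 CPM. These overlapping groups gave a 1.40-fold rise (limma adjusted p = 0.0365) that was lost without Upf2cKO 2 (limma adjusted p = 0.102) and under other alternatives.

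Six3os1, beside the anterior forebrain homeobox gene Six3, was set by single libraries and failed the filter. It was at 0.66, 0.24, 0.25 and 1.71 CPM in controls and 3.43, 0.23, 0.23 and 0.47 CPM in Upf2cKO. Six3 was at 0.35, 0.13, 0.12 and 1.74 CPM and then 2.79, 0.12, 0.10 and 0.52 CPM. Both genes were highest in Upf2cKO 1, the library with high Camk2a, and next in control 4, a library with high Ttr. What tissue from outside the cortex contributed was not tested. Pax6os1, under the threshold, was at 0.30, 0.29, 0.34 and 0.37 CPM in controls and 0.20, 0.10, 0.23 and 0.19 CPM in Upf2cKO. Otx2os1 did not exceed 0.08 CPM and Nkx2-2os did not exceed 0.06 CPM in any library. The Sox2-overlapping transcript Sox2ot, named by another rule, rose 1.33-fold from 34.0 ± 1.24 to 45.3 ± 4.21 CPM (limma adjusted p = 0.000236).

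**Figure D4:**
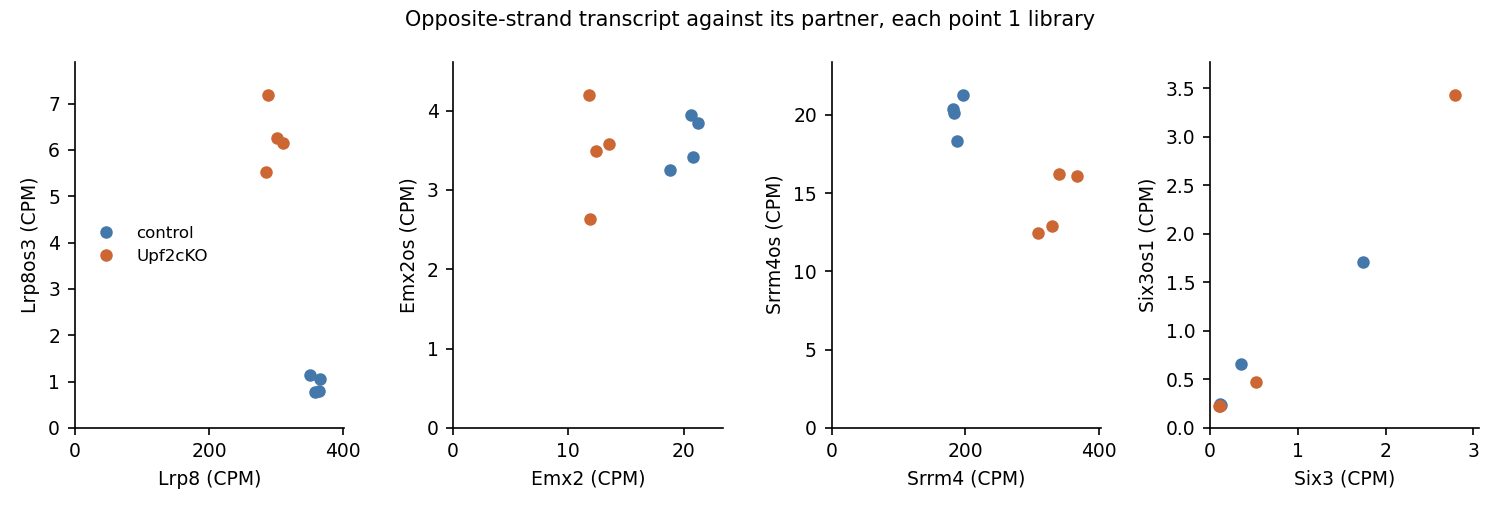
CPM of an opposite-strand transcript (vertical) against its partner (horizontal) for Lrp8os3, Emx2os, Srrm4os and Six3os1; each point is 1 library of control or Upf2cKO cortex. Lrp8os3 separates the genotypes upward and Srrm4os downward, Emx2os separates them only along Emx2, and Six3os1 follows single libraries of either genotype.

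The 16 transcripts that reached 0.5 CPM in 1 genotype only are given as values, since the threshold itself makes the genotypes differ. In 13 this was Upf2cKO. Il1bos, opposite to the gene of the cytokine interleukin 1 beta, was at 0.04, 0, 0 and 0 CPM in controls and 0.68, 0.61, 0.83 and 0.65 CPM in Upf2cKO. Il1b was at 0.03 to 0.09 CPM in controls and 0.33 to 0.38 CPM in Upf2cKO. Summed microglial markers were at 45.5 to 58 CPM in controls and 96.8 to 141 CPM in Upf2cKO, and their part in the Il1bos values was not tested. Hk1os, inside the hexokinase 1 gene, was at 0.16, 0.35, 0.29 and 0.26 CPM in controls and 1.18, 1.33, 1.17 and 0.85 CPM in Upf2cKO. The genotypes were apart for both of these. Hk1 fell 1.29-fold from 269 ± 9.57 to 208 ± 15.4 CPM (limma adjusted p = 0.000133).

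Appbp2os was at 0.08, 0.44, 0.33 and 0.31 CPM in controls and 0.80, 0.66, 0.70 and 0.57 CPM in Upf2cKO. Nr6a1os was at 0.38, 0.41, 0.55 and 0.22 CPM in controls and 0.74, 0.74, 0.65 and 0.67 CPM in Upf2cKO. Stamos, with its start region printed above, was at 0.36, 0.13, 0.16 and 0.31 CPM in controls and 0.63, 0.57, 0.55 and 0.54 CPM in Upf2cKO. The genotypes did not overlap in these 3, a separation that the threshold itself favours. Hopxos was at 0.28, 0.16, 0.26 and 0.25 CPM in controls and 0.59, 0.66, 0.78 and 0.38 CPM in Upf2cKO, again apart. Its partner Hopx, a homeodomain-only gene of outer radial glia, was 1.33-fold lower with overlapping groups (limma adjusted p = 0.0484), a call lost under most alternatives (limma adjusted p = 0.0815 with TPM). Stam, an endosomal sorting gene, was 1.1-fold lower (limma adjusted p = 0.027), and also lost its call with TPM (limma adjusted p = 0.247).

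In the rest of those over the threshold in Upf2cKO only, the genotypes overlapped. Smc2os was at 0.45, 0.29, 0.40 and 0.35 CPM in controls and 0.62, 0.38, 0.75 and 0.63 CPM in Upf2cKO. Mettl5os was at 0.48, 0.50, 0.47 and 0.53 CPM in controls and 0.42, 0.92, 0.83 and 0.86 CPM in Upf2cKO. Lrp8os2, the other transcript named for Lrp8, was at 0.30, 0.44, 0.57 and 0.51 CPM in controls and 0.37, 1.04, 0.78 and 0.47 CPM in Upf2cKO. It did not separate the genotypes as Lrp8os3 did. Ube4bos1 ranged from 0.25 to 0.47 CPM in controls and from 0.37 to 0.71 CPM in Upf2cKO. Pcsk2os2 ranged from 0.33 to 0.49 CPM in controls and from 0.34 to 0.70 CPM in Upf2cKO. Tmem74bos and Ppp1r18os had means of 0.443 and 0.482 CPM in control and 0.542 and 0.547 CPM in Upf2cKO.

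The 3 that reached the threshold in control only were Ift88os, Tomm6os and Sap30bpos. Ift88os was at 0.74, 0.67, 0.80 and 0.55 CPM in controls and 0.42, 0.61, 0.51 and 0.35 CPM in Upf2cKO, while Ift88, an intraflagellar transport gene, rose 1.85-fold from 22.3 ± 1.05 to 41.3 ± 1.96 CPM (limma adjusted p = 1.58e-07). Tomm6os was at 0.64, 0.68, 0.53 and 0.75 CPM in controls and 0.49, 0.35, 0.50 and 0.45 CPM in Upf2cKO. Its genotypes did not overlap, which the threshold itself favours. Sap30bpos was at 0.50, 0.63, 0.50 and 0.76 CPM in controls and 0.58, 0.47, 0.44 and 0.44 CPM in Upf2cKO. Just inside the threshold, by the higher genotype mean, were Ube4bos1 at 0.52 CPM, Pcsk2os2 at 0.525 CPM and Tmem74bos at 0.542 CPM. Just outside were Arhgap20os at 0.495 CPM, Frmd8os at 0.492 CPM and Dhrs13os at 0.485 CPM.

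Non-coding RNAs that carry other names, only some of them named as antisense or overlapping, were listed beside these. Their strand and overlap with other genes were not checked. Of 26 such names, 23 were in the table and 18 were tested, with 10 higher and 5 lower and a median log2 change of 0.23, against 36.7% higher, 26.3% lower and a median of 0.04 over all genes. Zfas1, which starts opposite to a zinc finger gene and hosts small nucleolar RNAs, rose 15.7-fold from 36.2 ± 1.89 to 574 ± 61.9 CPM. Gas5, another host of small nucleolar RNAs and a known target of nonsense-mediated decay, rose 7.26-fold from 168 ± 18.9 to 1218 ± 86.6 CPM. Peg13, an imprinted transcript, fell 1.34-fold from 289 ± 6.66 to 216 ± 5.58 CPM. Among the genes that turn over divergent and other non-coding RNA, 34 of 37 listed were tested, with 21 higher, 4 lower and a median log2 change of 0.18, beside the same shares over all genes. Neither list was tested as a set. Srrt, the Ars2 gene that hands capped RNAs to decay or export, rose 3.09-fold from 160 ± 3.93 to 496 ± 33.2 CPM. Ints11, the endonuclease of Integrator, rose 2.13-fold from 35.6 ± 1.42 to 75.9 ± 1.99 CPM. Dis3, a nuclease of the exosome, rose 2.54-fold from 61.8 ± 2.5 to 157 ± 10.3 CPM. All 6 were called with limma. A gene-level rise does not say which of a gene's transcripts rose.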

How the data were processed

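RNA was measured in 8 libraries of mouse cortex at E18.5. The authors deposited CPM and TPM per gene and library, with 2 decimals. Per the submitters' processing notes, fastp 0.23.4, STAR 2.7.11a, Picard 3.1.1, MultiQC 1.25 and the build mm10 were used, with no roles given. No source used here gives the annotation, the read counter or its strand setting. Gene IDs were matched to GENCODE vM21 for symbols and coordinates, and promoters came from RefSeq.

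From the deposited CPM, limma 3.58.1 in R 4.3.3 tested log2(CPM + 0.1), so fold changes of low genes are understated. Genes needed 0.5 CPM in 4 of 8 libraries, and p-values were adjusted by Benjamini and Hochberg over all 16573 genes tested, with a threshold of 0.05. Pair ratios were tested the same way over 3485 pairs. These were the annotated opposite-strand neighbours that overlap or start within 2000 bases, together with the named pairs. The steps were tested on simulated data. Depth was read from the steps of low TPM values, where 99.7% or more of 1082 to 1397 values per library were whole reads within 0.15 reads. CPM with 2 decimals is too coarse to recover counts, so no count test was run.

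The transcripts and gene lists were chosen with earlier results of these data known. Transcripts named with values are the 8 largest called rises and the called falls, the 5 most abundant, 6 called opposite to a called partner, those over the threshold in 1 genotype, fixed forebrain names, and up to 3 of each list by adjusted p. Others were named after their values were seen: Map2k3os, B9d1os, Mkln1os, Man2c1os, Alkbh3os1 and Zfp335os. One transcript in the counts is not reported here by name. Of the fixed names, Oip5os1 was not analysed here. Replicate numbers were not treated as pairs. Alternatives were another pseudocount, other filters, TPM, median-of-ratios rescaling, a replicate block and leaving out libraries.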

Additional observations from a re-analysis of the deposited data

Results flagged for a closer look

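In 142 groups of 4 libraries, over 71 genes, the highest or lowest library stood apart from the other 3 in 13. Chance alone would give about 1 in 20 for independent groups of normally spread values, which these need not be. Among opposite-strand transcripts, Arhgap33os was at 1.38 CPM in control 1 and at 0.72 to 0.80 CPM in the other controls. Cdiptos was at 3.78 CPM in Upf2cKO 2 and at 3.05 to 3.08 CPM in the other Upf2cKO libraries. Il1bos was at 0.04 CPM in control 1 and at 0 in the other controls, where any value above 0 would have been flagged. Six3os1 was at 3.43 CPM in Upf2cKO 1 against 0.23 to 0.47 CPM.

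Among partners, Six3 was at 1.74 CPM in control 4 against 0.12 to 0.35 CPM, and at 2.79 CPM in Upf2cKO 1 against 0.10 to 0.52 CPM. In Upf2cKO 1, Med9 was at 25.99 CPM against 23.39 to 23.55 CPM and Pcsk2 at 54.59 CPM against 34.77 to 37.75 CPM. The same library was low in Ppp1r18, at 61.73 CPM against 67.18 to 67.7 CPM, and in Sap30bp, at 92.47 CPM against 97.78 to 98.84 CPM. Rab10 was at 243.4 CPM in Upf2cKO 4 against 206.2 to 211.5 CPM. Tmem74b was at 14.46 CPM in control 1 against 16.98 to 17.49 CPM, and at 17.89 CPM in Upf2cKO 2 against 13.27 to 13.46 CPM. Upf2cKO 1 accounts for 6 of the 13.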

How the results depend on the processing

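No called log2 change of a named gene changed sign under the alternatives run. With a filter of 2 CPM, which tests fewer genes, 14 transcripts were higher, 0 of those inside their partner were higher, and 11 pair ratios were higher and 4 lower. That filter left 13485 genes, with 4864 higher and 4083 lower, and 2236 pairs, with 1565 ratios called. With TPM, 3 transcripts were lower and 0 of the divergent ones. After median-of-ratios rescaling 8 transcripts were lower, and over all genes 5135 were higher and 5787 lower, so that the balance of calls turned, with 47.0% higher against 58.3% without it. Partners turned likewise, from 24 higher and 23 lower to 16 and 32. The cause of these shifts was not tested. Leaving out each library in turn gave 1 to 2 lower transcripts inside the partner, with 2 without Upf2cKO 1, and 17 to 22 higher transcripts overall. Without control 4 and Upf2cKO 4, chosen after seeing the data for their Ttr, 17 transcripts were higher and 5 lower. Over all genes, 5658 were then higher and 3855 lower. Same-numbered libraries deviated together with r of 0.42, 0.05, 0.52 and 0.19, and differently numbered ones with r from -0.45 to 0.33. Whether the numbers mark pairs or a shared batch was not tested. With the replicate block, 25 transcripts were higher and 6 lower and, over all genes, 6126 were higher and 4423 lower. Of 760 values of 51 named genes under alternatives, 705 kept direction and call, 43 lost the call, in 8 genes (Med9, Lhx1, Tmem147, Wdr83os, Brip1os, Slc7a6, Hopx and Stam), and 12 gained it. At 0.5 CPM a transcript rests on 48.3 to 78.0 reads; the smallest difference detectable at that level was not tested.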
